A study of Mus musculus with 50 samples.

Results

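Expression of 10 genes of fatty acid oxidation was followed in 50 mammary gland (MG) tumors. The genes were Ppargc1a, Ppara, Cpt1a, Cpt1b, Cpt2, Acadm, Acadl, Acadvl, Hadha and Ucp2. Their rows were picked by gene name, and all 10 were found among the 37701 genes of the RPKM table (RPKM, reads scaled to gene length and library size).

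All tumors came from female p53R270H/+WAPCre mice that were 8 weeks old when treatment began. In these mice a Cre recombinase under the WAP promoter, which is active in mammary epithelium, switches on a mutant p53 allele beside a normal p53 allele, so the vehicle mice carried the mutation too. There were 10 tumors in each of 5 groups, from mice injected under the skin every other day with vehicle, insulin, glargine, X10 or IGF1 until a tumor had formed; doses are not given in the sources used here. Both glargine and X10 are insulin analogs, whereas IGF1 is a separate hormone of the same family that acts on its own receptor. Tumors were taken at 1 cm3, 24 h after the last injection, and the authors had picked EMT-like tumors with a latency near the median of their group, so the groups do not stand for every tumor of a treatment. The tumors titled untreated in the labels were taken as the vehicle group.

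Mitochondria burn long-chain fatty acids in steps. The outer membrane enzyme CPT1, of which Cpt1a encodes the liver form and Cpt1b the muscle form, couples the fatty acid to carnitine and is the main point of control, since malonyl-CoA from fatty acid synthesis blocks it. CPT2 reverses this step at the inner membrane. Acyl-CoA dehydrogenases for very long (Acadvl), long (Acadl) and medium (Acadm) chains make the first double bond, and the trifunctional protein, whose alpha subunit is Hadha, carries out the next steps on long chains. PPAR alpha (Ppara) is a nuclear receptor that fatty acids activate, and PGC-1 alpha (Ppargc1a) is a coactivator of it and of mitochondrial biogenesis. Ucp2 is an inner membrane carrier of the uncoupling protein family that is abundant in macrophages and lymphocytes.

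The enzymes and Ucp2 were read deeply, whereas Ppargc1a, Ppara and Cpt1b lay near the limit of detection. Over the 50 tumors the mean RPKM was 524 for Ucp2, 94.9 for Acadvl, 85.8 for Acadm, 63.1 for Hadha, 62.7 for Acadl, 30.0 for Cpt1a and 28.1 for Cpt2. It was 0.551 for Ppargc1a, 0.476 for Ppara and 0.216 for Cpt1b. The number of reads behind each value was recovered from the steps between RPKM values. Cpt1b had between 1 and 17 reads in a tumor, Ppara between 6 and 77 and Ppargc1a between 5 and 236, while Cpt2, the least read of the other members, had between 462 and 1895. All 10 genes had a value above 0 in all 50 tumors.

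The order of levels between genes depends on the gene length used for the RPKM. The length recovered from the values was equal to the median length of the annotated transcripts for Ppara, Cpt1b, Cpt2, Acadl, Acadvl and Ucp2; for Ucp2 it was 670 bases, against 3988 bases of its longest transcript. With the longest transcript of each gene as its length, a setting chosen after seeing the data, the mean level was 88.0 RPKM for Ucp2, 42.0 for Acadl, 33.7 for Acadvl, 29.9 for Cpt1a, 27.6 for Hadha, 27.1 for Acadm and 8.96 for Cpt2. Ucp2 stayed the highest and Cpt1b, at 0.0549, the lowest, but Acadl moved from rank 5 to rank 2 and Acadm from rank 3 to rank 6. Cpt1a had far more reads than Cpt1b under either length, so of these 2 forms the liver form supplied nearly all reads. Differences between tumors within a gene do not depend on this length.

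**Figure D1:**
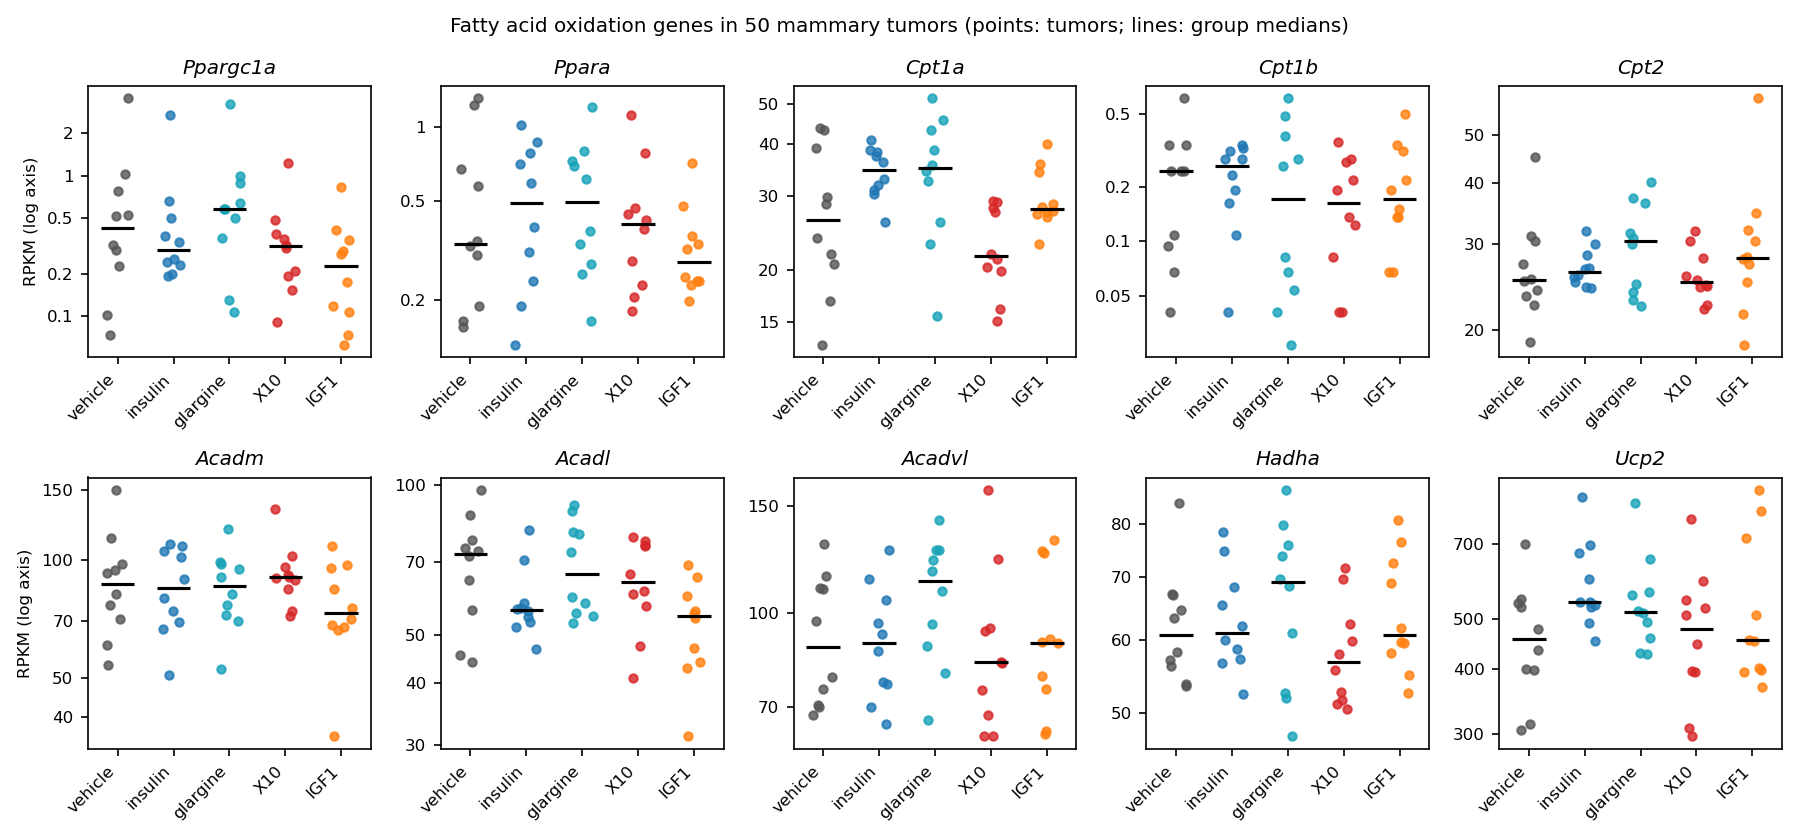
RPKM (log axis) of each of the 10 genes in each tumor, by treatment group of 10 tumors, with black lines at the group medians. Cpt1a of the X10 tumors lies between 15.1 and 29.2, under most insulin tumors (26.0 to 40.9), and 5 tumors hold Ppargc1a above 1 RPKM.

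Library sizes ran from 26.6 to 51.9 M reads (median 40.9), and the X10 group had the lowest group median, 35.4 M reads. As bulk tumors, the samples hold several cell types, and fewer cells of a type cannot be told apart from less RNA per cell. Markers of leukocytes, mesenchyme and endothelium were above 0 in every tumor; the summed RPKM of 6 mesenchymal markers was between 3976 and 31143 and that of 6 epithelial markers between 10.6 and 4442. The brown fat gene Ucp1 was at 0 in 3 tumors and under 0.5 RPKM in 47 of 50, while summed skeletal muscle markers ran from 5.81 to 4873 RPKM.

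Each gene was tested with limma on log2(RPKM + 0.5), in a model of all 5 groups, and p-values were adjusted by Benjamini-Hochberg over the 16733 genes whose mean RPKM reached 0.5. On this scale the change of genes with low values is understated. Of the members 8 of 10 passed this filter; Ppara and Cpt1b did not, and are given by their values and by two-sided permutation tests with 100000 resamples. The filter uses the mean over all tumors. Ppargc1a (mean 0.551 RPKM) passed it through the vehicle, insulin and glargine groups, since its group means were 0.742, 0.571 and 0.802 RPKM there but 0.373 with X10 and 0.268 with IGF1. Single tumors carry these means: without the highest tumor of each group they were 0.429 RPKM with vehicle, 0.331 with insulin, 0.530 with glargine, 0.277 with X10 and 0.206 with IGF1.

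At an adjusted p of 0.05, 0 members were called in any of 12 comparisons. These were the 4 ligands against vehicle, the 20 X10 and IGF1 tumors against the 30 other tumors, any difference among the 5 groups, and the 6 pairs of ligands, which were added after seeing the data. Few genes of any kind passed this threshold. The share of all tested genes called was 0% for insulin against vehicle, 0% for glargine against vehicle, 0.0657% for X10 against vehicle, 0.00598% for IGF1 against vehicle, 0.155% for X10 and IGF1 against the rest and 0.102% for any difference. For the pairs it was 0% for glargine against insulin, 0.102% for X10 against insulin, 0.00598% for IGF1 against insulin, 1.78% for X10 against glargine, 0% for IGF1 against glargine and 0% for IGF1 against X10.

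At an unadjusted p of 0.05 by limma, 2 of 8 tested members differed between insulin and vehicle, where 11.1% of all genes did. None of the 8 differed between glargine and vehicle (all genes, 6.23%) or between X10 and vehicle (11%), and 1 differed between IGF1 and vehicle (8.84%). For X10 and IGF1 against the rest 2 of 8 were past it (10.5%), and 2 of 8 for any difference among the groups (13.1%). Between ligands the counts were 0 for glargine against insulin (3.96%), 1 for X10 against insulin (11.3%), 0 for IGF1 against insulin (7.3%), 1 for X10 against glargine (11.6%), 2 for IGF1 against glargine (6.98%) and 2 for IGF1 against X10 (11.7%). Ppargc1a is 1 of the 2 genes counted for X10 and IGF1 against the rest and for IGF1 against glargine, comparisons that set groups in which it was low against groups that brought it past the filter. With 8 members, a share of 11% stands for about 1 gene.

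**Figure D2:**
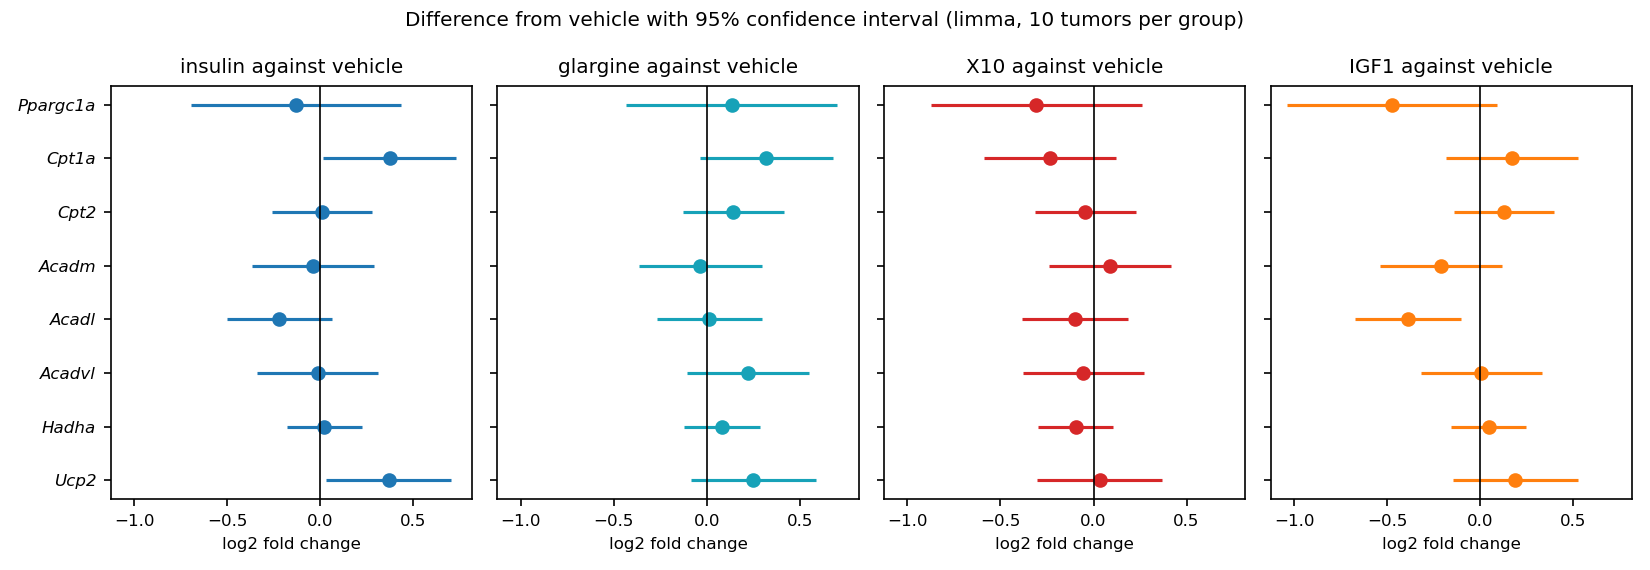
Log2 fold change from vehicle with its 95% confidence interval for the 8 tested members in each ligand group (10 tumors per group, limma). The intervals leave out 0 for Cpt1a and Ucp2 with insulin and for Acadl with IGF1, before adjustment for the number of genes.

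Cpt1a, the gatekeeper of mitochondrial entry, was the member with the smallest p for any difference among the 5 groups (F = 3.92, p = 0.00778, adjusted p = 0.236, limma). The lowest, median and highest RPKM were 13.2, 26.3 and 43.9 in the vehicle tumors, 26.0, 34.7 and 40.9 in the insulin tumors and 15.5, 35.1 and 51.6 in the glargine tumors. They were 15.1, 21.5 and 29.2 in the X10 tumors and 23.1, 28.0 and 40.0 in the IGF1 tumors. The X10 tumors thus lay low and the insulin tumors high, while the vehicle and glargine tumors spread over both.

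Of the insulin tumors 9 of 10 were above every X10 tumor for Cpt1a, and 6 of 10 X10 tumors were below every insulin tumor, so the groups still overlapped. On the log2 scale X10 tumors were lower than insulin tumors by -0.61 (SE 0.18, 0.657-fold, p = 0.00126, adjusted p = 0.133 by limma) and than glargine tumors by -0.55 (SE 0.18, adjusted p = 0.0954). X10 against vehicle gave -0.23 (SE 0.18, 95% CI -0.59 to 0.12) and IGF1 against X10 gave 0.40 (SE 0.18, adjusted p = 0.386). With only the 2 groups compared in the fit, X10 against insulin reached an adjusted p of 0.0486 by limma. In the other alternatives with all tumors it was between 0.116 and 0.165, and over the 50 fits that left out a tumor the smallest adjusted p of any member was between 0.0710 and 0.286. Glargine tumor 47 had the lowest Cpt1a of its group, and without it X10 against glargine was -0.67 with an adjusted p of 0.0318 by limma. It passed in no other fit that left out a tumor, and the adjusted p was highest, 0.222, without the X10 tumor with the lowest Cpt1a.

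Markers of other cell types also differed in these contrasts, none at an adjusted p of 0.05 by limma. In mean log2 level 8 of 8 leukocyte markers were lower in X10 than in insulin tumors (median -0.30) and 5 of 6 epithelial markers were higher (median 0.97). Against glargine tumors, 7 of 7 tested adipocyte markers (median -0.85) and 4 of 4 tested brown adipocyte markers (median -0.68) were lower in X10 tumors. The 8 adipocyte markers summed to between 21.1 and 545.6 RPKM in X10 and between 25.3 and 642 RPKM in glargine tumors. With the adipocyte, muscle, epithelial and leukocyte scores as covariates, Cpt1a of X10 tumors was at -0.58 relative to insulin (SE 0.19, adjusted p = 0.163) and at -0.54 relative to glargine (SE 0.19, adjusted p = 0.127).

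Against vehicle, Cpt1a of insulin tumors was at 0.37 (SE 0.18, p = 0.0403, adjusted p = 0.425 by limma), with 9 of 10 insulin tumors above the vehicle mean. The two-sided permutation test of this difference gave p = 0.0662. In the same contrast 6 of 6 epithelial markers were lower in mean log2 level (median -1.33, 2 at an unadjusted p of 0.05) and 8 of 8 leukocyte markers higher (median 0.62), and with the 4 marker scores as covariates Cpt1a was at 0.33 (SE 0.20, adjusted p = 0.785 by limma). Glargine tumors were at 0.32 (SE 0.18, 95% CI -0.04 to 0.68) and IGF1 tumors at 0.17 (95% CI -0.19 to 0.53). All of these comparisons share the 10 vehicle tumors. Treatment group took up 25.4% of the variance of Cpt1a, against a median of 9.29% over all tested genes; 96.3% of the tested genes had a lower share.

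The 20 X10 and IGF1 tumors together were at -0.26 for Cpt1a relative to the 30 other tumors (SE 0.11, p = 0.0260, adjusted p = 0.377 by limma; permutation test p = 0.0387). The 2 groups in this pool were unlike: X10 tumors had the lowest mean of the 5 groups (22.8 RPKM, SD 5.33, n = 10), while IGF1 tumors (30.0 RPKM, SD 5.12, n = 10) lay between vehicle tumors (28.2 RPKM) and insulin tumors (34.4 RPKM).

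Cpt1b, the muscle form, had 1 to 17 reads per tumor, and the mean RPKM of the groups was between 0.174 (X10, SD 0.108) and 0.234 (vehicle, SD 0.172). Permutation tests against vehicle gave p between 0.412 and 0.942 in the 4 ligand groups, so that differences were not detectable at this depth. Cpt2, which hands the acyl chain back to CoA, varied little: the group means ran from 25.9 RPKM (X10, SD 3.22) to 30.5 RPKM (IGF1, SD 11.2), and the intervals against vehicle spanned 0 in the 4 ligand groups. The highest Cpt2 value of the 50 tumors, 59.5 RPKM, was in an IGF1 tumor, whose group also held the lowest, 18.6 RPKM.

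Among the dehydrogenases Acadl was the member that stood lowest in the IGF1 tumors. The lowest, median and highest RPKM were 44.0, 72.7 and 97.8 in vehicle tumors, 46.7, 56.0 and 81.1 in insulin tumors and 52.6, 66.3 and 91.2 in glargine tumors. They were 40.8, 63.7 and 78.7 in X10 tumors and 31.2, 54.5 and 69.1 in IGF1 tumors. Of the vehicle tumors 6 of 10 were above every IGF1 tumor and 2 of 10 IGF1 tumors below every vehicle tumor. The difference of IGF1 from vehicle was -0.39 (SE 0.14, 0.763-fold, p = 0.00828, adjusted p = 0.394 by limma; permutation test p = 0.0253), with 9 of 10 IGF1 tumors below the vehicle mean.

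IGF1 tumors also differed from vehicle tumors in markers of other cell types: 6 of 6 epithelial markers and 6 of 7 tested adipocyte markers were lower in mean log2 level, with medians of -2.22 and -0.72, and 8 of 8 leukocyte markers were higher, with a median of 0.36, none at an adjusted p of 0.05. The summed epithelial markers were between 11.4 and 675 RPKM in IGF1 tumors and between 10.6 and 4442 in vehicle tumors. With scores of adipocyte, muscle, epithelial and leukocyte markers as covariates, Acadl of IGF1 against vehicle was -0.24 (SE 0.15, adjusted p = 0.839). Acadl of IGF1 tumors was also at -0.40 relative to glargine tumors (SE 0.14, adjusted p = 0.641) and at -0.29 relative to X10 tumors (SE 0.14, adjusted p = 0.421). In both contrasts 7 of 7 tested adipocyte markers and 6 of 6 epithelial markers were lower in IGF1 tumors, none at an adjusted p of 0.05. The medians were -1.41 and -1.92 against glargine and -0.67 and -1.64 against X10.

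For Acadm and Acadvl, the medium and very long chain enzymes, 0 comparisons passed an unadjusted p of 0.05 by limma. Mean Acadm was between 76.8 RPKM (IGF1, SD 20.5) and 92.3 RPKM (X10, SD 17.4), and mean Acadvl between 90.3 RPKM (X10, SD 30.2) and 107.4 RPKM (glargine, SD 24.0). The largest difference from vehicle was 0.22 (SE 0.16) for Acadvl in glargine tumors and -0.21 (SE 0.16) for Acadm in IGF1 tumors, both with 95% intervals that span 0. Acadm, like Acadl, had its lowest group mean in IGF1 tumors, of which 5 of 10 were below every X10 tumor; IGF1 against X10 gave -0.30 (SE 0.16, 95% CI -0.63 to 0.03). Hadha, the alpha subunit of the trifunctional protein, was the steadiest member. Its SD over the 50 tumors was 0.22 on the log2 scale, where the median gene had 0.42 and 2.22% of genes had less; the group means ran from 58.3 (X10, SD 7.62) to 66.7 RPKM (glargine, SD 13.2).

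Ppargc1a was set apart by a few tumors. In vehicle tumors the lowest, median and highest RPKM were 0.073, 0.420 and 3.56, in insulin tumors 0.192, 0.296 and 2.72, and in glargine tumors 0.107, 0.581 and 3.25. They were 0.090, 0.313 and 1.24 in X10 tumors and 0.062, 0.226 and 0.823 in IGF1 tumors. Of the 50 tumors 5 were above 1 RPKM, with 2 in the vehicle group, 1 each in the insulin, glargine and X10 groups and 0 in the IGF1 group. The other 45 were below it, and group ranges overlapped throughout.

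The 20 X10 and IGF1 tumors were at -0.39 for Ppargc1a relative to the 30 others (permutation test p = 0.0330). Of the 20 tumors 18 were below the mean log2 level of the others, which a few high tumors raise; 8 of 10 insulin tumors were likewise below that of vehicle tumors, and the insulin median (0.296 RPKM) was below the X10 median (0.313 RPKM). As the filter favors this difference, the fit over all genes with a value above 0, where no mean level is required, is given here: SE 0.18, p = 0.0354, adjusted p = 0.553 by limma. The size depends on the scale for so low a gene: with a pseudocount of 0.1 it was -0.65 and with voom on the recovered reads -0.77, neither called. In the same comparison 4 of 4 tested brown adipocyte markers were lower in mean log2 level, with a median of -0.37, and 7 of 7 tested adipocyte markers, with a median of -0.47, 0 of them at an adjusted p of 0.05 by limma. The 6 brown adipocyte markers summed to between 2.31 and 47.2 RPKM in X10 and IGF1 tumors and to between 2.89 and 72.9 RPKM in the others, and with marker scores of adipocytes, muscle, epithelium and leukocytes as covariates Ppargc1a was at -0.31 (SE 0.19). The part of brown fat cells was not tested. IGF1 tumors were at -0.47 relative to vehicle (SE 0.28, 95% CI -1.04 to 0.09). Ppara gave a mean of 0.526 RPKM in vehicle tumors (SD 0.422), 0.523 with insulin (SD 0.310), 0.545 with glargine (SD 0.320), 0.452 with X10 (SD 0.290) and 0.337 with IGF1 (SD 0.157). Its permutation tests against vehicle gave p between 0.267 and 0.890.

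Ucp2 had its lowest group mean in vehicle tumors (464 RPKM, SD 119.8, n = 10) and its highest in insulin tumors (591 RPKM, SD 120.8, n = 10). The lowest, median and highest RPKM were 304, 457 and 699 with vehicle, 454, 540 and 861 with insulin and 428, 516 and 840 with glargine. They were 296, 478 and 781 with X10 and 369, 455 and 890 with IGF1. Of the vehicle tumors 5 of 10 were below every insulin tumor, and 10 of 10 insulin tumors were above the vehicle mean. The difference was 0.37 (SE 0.17, 1.29-fold, p = 0.0324, adjusted p = 0.406 by limma; permutation test p = 0.0217).

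Leukocyte markers also differed in this contrast. Of 8 leukocyte markers 8 were higher in mean log2 level in insulin than in vehicle tumors, with a median of 0.62, 5 at an unadjusted p of 0.05 and 0 at an adjusted p of 0.05 by limma. Their summed level was between 848 and 3219 RPKM in insulin tumors and between 759 and 2519 in vehicle tumors. With the marker scores as covariates the Ucp2 difference was 0.15 (SE 0.14, adjusted p = 0.873). Over the 50 tumors Ucp2 was related to the mean z-score of the leukocyte markers, with a Pearson r of 0.69 and a Spearman rho of 0.62 (permutation p = 1e-05 for each, the smallest that 100000 resamples can give; adjusted p = 0.000700 over the 70 pairs of members and marker lists). Leaving out the 2 tumors with the most extreme Ucp2 levels gave 0.65, and with values centred within treatment groups 0.66. The 3 genes most like Ucp2 over the tumors were Fermt3 (r = 0.83), Pycard (r = 0.82) and Hcls1 (r = 0.80), all best known from blood cells or inflammasomes. The part of leukocytes in the level of Ucp2 was not tested.

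**Figure D3:**
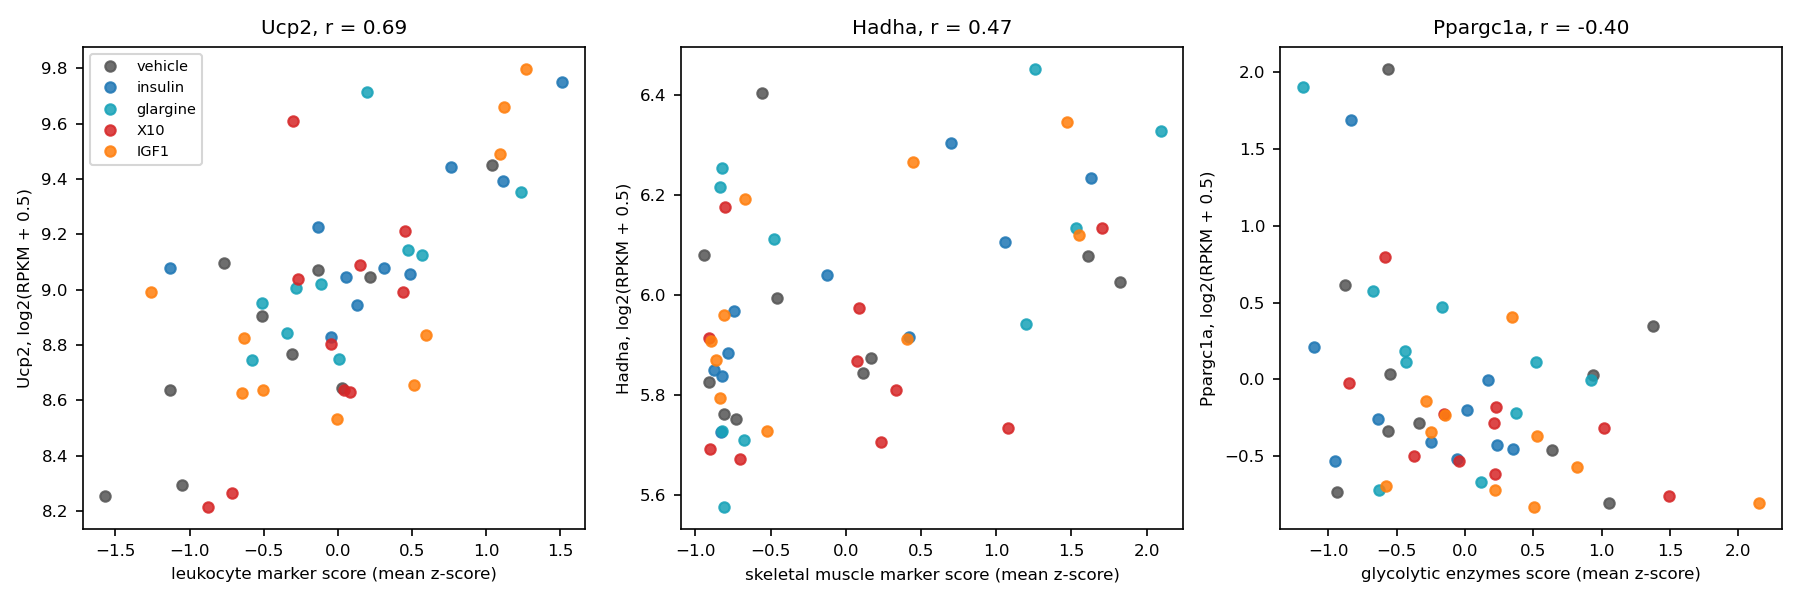
Log2(RPKM + 0.5) of Ucp2, Hadha and Ppargc1a against the mean z-score of leukocyte markers, skeletal muscle markers and glycolytic enzymes, 1 point per tumor and 1 color per treatment group. Ucp2 rises with the leukocyte score (r = 0.69), Hadha is higher in tumors with a high muscle score (r = 0.47), and Ppargc1a is above 1 RPKM only in tumors with a glycolytic score below 0 (r = -0.40).

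Of the 70 pairs of members and marker lists 2 passed an adjusted p of 0.05. The other was Hadha with skeletal muscle markers (r = 0.47, adjusted p = 0.0262, and rho = 0.44, adjusted p = 0.0315, permutation tests), where the summed muscle markers had a median of 36.1 RPKM. With upper quartile scaling the Hadha relation had r = 0.44 and an adjusted p of 0.0514 by permutation. Acadvl was at 0.39 with the same score (adjusted p = 0.115; rho = 0.46, adjusted p = 0.0315). Adipocyte scores gave 0.36 with Acadl and 0.31 with Cpt2, with adjusted p of 0.144 and 0.152 by permutation. Ppargc1a was at 0.34 with brown adipocyte markers (adjusted p = 0.144), and at 0.56 after leaving out the 2 tumors with the most extreme Ppargc1a levels (adjusted p = 0.00957). It passed in no other setting. Adjusted p by permutation was 0.223 within groups (r = 0.29) and 0.116 by Spearman (rho = 0.34). With a pseudocount of 0.1 it was 0.0898 and with upper quartile scaling 0.121. The part of muscle or fat cells in the levels of these genes was not tested.

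Cpt2, Acadvl and Hadha varied together from tumor to tumor. Of 45 pairs of members 6 passed an adjusted p of 0.05 in permutation tests over the 50 tumors. Acadvl and Hadha gave r = 0.62 (rho = 0.63), Cpt2 and Acadvl 0.53 (rho = 0.60) and Cpt2 and Hadha 0.48 (rho = 0.57). These 3 genes encode successive enzymes on the path of long chains through the inner membrane. Ucp2 was related to Cpt2 (r = 0.47, rho = 0.43) and to Hadha (r = 0.46, rho = 0.50), and Ppargc1a to Acadl (r = 0.45, rho = 0.48). With upper quartile scaling 5 pairs passed, since Hadha and Ucp2 then had an adjusted p of 0.0516 by permutation. Acadl, the long-chain dehydrogenase, did not pass with Hadha (r = 0.36, adjusted p = 0.0627 by permutation), but did with group means removed (r = 0.43, adjusted p = 0.0124).

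Acadm was related to no other member, with r between -0.09 and 0.14, and Cpt1a to none at this threshold, with r between -0.01 and 0.32. Within treatment groups, that is with group means removed, Cpt2, Acadvl and Hadha gave r of 0.61 (Acadvl and Hadha), 0.52 (Cpt2 and Acadvl) and 0.46 (Cpt2 and Hadha). With the parts that the 4 marker scores account for removed, a setting chosen after seeing the data, the values were 0.54, 0.48 and 0.41, each still past the threshold. After leaving out the 2 tumors most extreme in the first gene they were 0.68, 0.63 and 0.65. Ppargc1a and Acadl gave 0.49 in that setting and 0.38 within groups, but did not pass with marker scores removed. The gene most like Cpt2 was Etfb (r = 0.72), which encodes the beta subunit of the electron transfer flavoprotein that takes electrons from the acyl-CoA dehydrogenases.

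**Figure D4:**
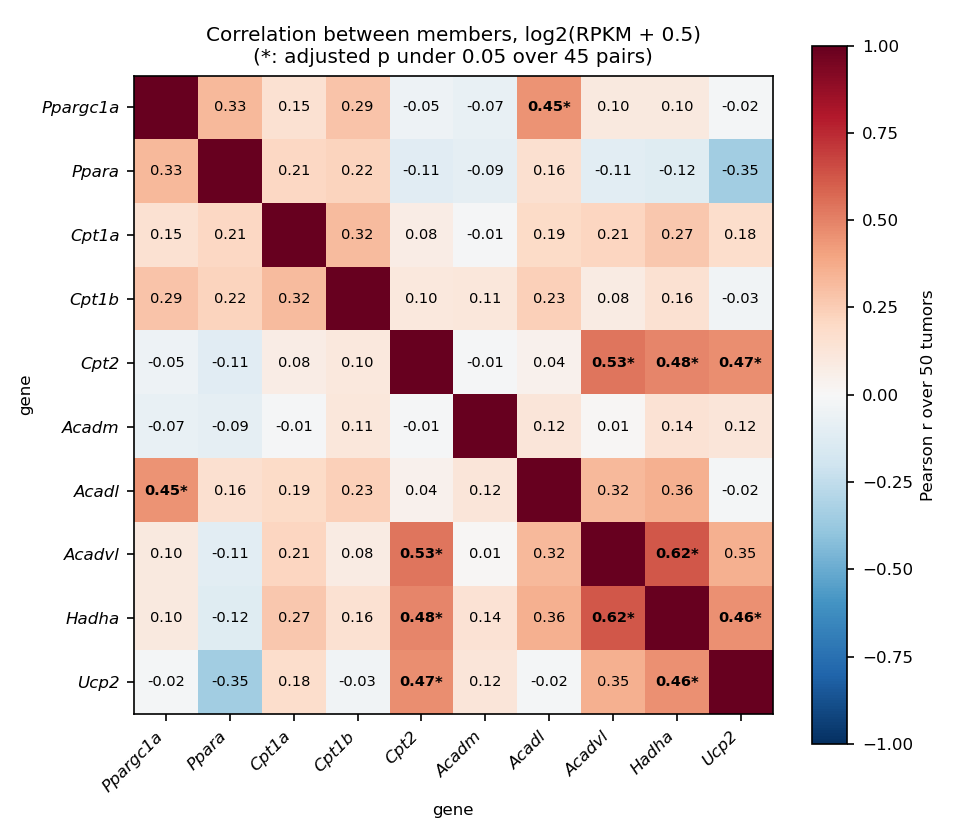
Pearson correlation between the 10 members over 50 tumors, on log2(RPKM + 0.5); a star marks an adjusted p under 0.05 over 45 pairs. Acadvl, Hadha and Ucp2 form the block of positive values at the lower right, with r of 0.62 for Acadvl and Hadha. Cpt2, farther up, is positive with each of them, while the Acadm row stays between -0.09 and 0.14.

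The upstream sequences of Cpt2, Acadvl and Hadha and of Acadm are printed to show a set of enzyme genes that varied together beside an enzyme gene that did not. They are the bases before the RefSeq start in GRCm38.p6, on the strand of the gene. For Hadha only the 68 bases outside all annotated transcripts are shown. The Cpt2 window was not cut in this way, and its last bases, 107923610 to 107923590, lie inside the annotated gene. Capitals mark the nuclear receptor hexamer AGGTCA, the GC box GGGCGG and the core TGACGT of the cyclic AMP element, each searched on both strands.
Cpt2, chr4:107923590-107923839, minus strand: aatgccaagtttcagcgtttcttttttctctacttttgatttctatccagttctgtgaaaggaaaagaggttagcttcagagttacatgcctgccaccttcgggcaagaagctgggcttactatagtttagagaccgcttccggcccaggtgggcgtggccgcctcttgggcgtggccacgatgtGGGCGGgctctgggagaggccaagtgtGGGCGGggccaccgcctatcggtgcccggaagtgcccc
Acadvl, chr11:70015429-70015678, minus strand: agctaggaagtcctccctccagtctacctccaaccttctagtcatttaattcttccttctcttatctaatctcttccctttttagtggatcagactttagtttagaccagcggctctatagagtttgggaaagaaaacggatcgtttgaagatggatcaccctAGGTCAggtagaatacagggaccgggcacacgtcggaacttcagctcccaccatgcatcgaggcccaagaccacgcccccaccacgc
Hadha, chr5:30155163-30155230, minus strand: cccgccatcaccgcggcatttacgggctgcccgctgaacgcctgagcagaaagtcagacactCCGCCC
Acadm, chr3:153944644-153944893, minus strand: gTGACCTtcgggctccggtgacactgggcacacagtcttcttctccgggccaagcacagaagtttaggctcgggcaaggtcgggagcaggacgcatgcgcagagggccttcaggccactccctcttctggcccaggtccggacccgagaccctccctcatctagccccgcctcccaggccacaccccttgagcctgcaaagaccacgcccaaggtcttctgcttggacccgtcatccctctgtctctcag

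These 3 genes held no common match in these letters: Cpt2 and Hadha had GC boxes and Acadvl had the hexamer. Of the 9 members with a promoter in the table, over the 250 bases before the start, 3 held AGGTCA (Cpt1a, Acadm and Acadvl), where 14.0% of the 32851 promoters did. GGGCGG stood in 6 of 9 (32.7% of all promoters) and TGACGT in 1 of 9, that of Ppargc1a (6.47% of all). The 6 with GGGCGG, a string of G and C alone, had between 56.8% and 76.4% GC, beside a median of 52.4% over all promoters. The count was not compared with promoters of like GC content. AGGTCA repeated on the same strand with 1 base between, the element of PPAR and RXR, was in 0 of 9 and in 0.0335% of all promoters. A match is a string of letters and shows no binding, and the absence of a match holds for this window alone. Cpt1b is the member with no promoter printed or counted.

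Some members varied with genes on their own chromosome. For each member the 3 genes with the highest r over the 50 tumors were taken, and 13 of these 30 genes lay on the member's own chromosome. Most tested genes lie on other chromosomes. Acadvl had the most on its own, 323 within 10 Mb and 1075 beyond, beside 15151 on other chromosomes. Cpt1a had the fewest, 237 and 274, beside 16039. For Acadvl on chromosome 11 they were Psmb6 (r = 0.69), Mrpl55 (0.68) and Stx8 (0.67), and Psmb6, at 70525367 to 70527858, is close to Acadvl, at 70010183 to 70015411 (GRCm38). For Acadl on chromosome 1 they were Xrcc5 (0.62), Dis3l2 (0.55) and Tuba4a (0.55), again all 3 on that chromosome. Of the genes most like Cpt1a, Erlin1 (0.63) and Ganab (0.62) lie on chromosome 19 with it. For Ppargc1a (Shisa2, Celsr2 and Chad, r between 0.75 and 0.77), Ppara (Gk5, Wipi1 and Nrg4, r near 0.54) and Cpt1b 0 of 3 did. The 3 genes of Cpt1b, with r between 0.44 and 0.45, are annotated as pseudogenes.

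The median r of Acadvl was 0.25 with the 323 tested genes within 10 Mb, 0.07 with the rest of the chromosome and 0.01 with other chromosomes. In 9 of 10 members, all but Ppara, the median r within 10 Mb was above that with other chromosomes, which had values between -0.02 and 0.06. It was not above that with the rest of the chromosome for Ppara, Cpt1a (0.12 against 0.19), Cpt1b (0.08 against 0.08), Acadl (0.11 against 0.11) and Ucp2 (0.19 against 0.19). Each member was then related to the mean z-score of the tested genes within 10 Mb of it, a test added after seeing these values. The score averages the same neighbors over the same tumors, so its p-values are no separate support for the medians above. No such score was made for the rest of the chromosome, so the tests cannot set neighbors apart from it. Acadvl gave r = 0.67 (rho = 0.66), Ucp2 0.56 (0.46), Acadl 0.43 (0.45) and Hadha 0.38 (0.42), each past an adjusted p of 0.05 over the 10 relations by permutation in both measures. Cpt2 gave 0.38 (adjusted p = 0.0175), but 0.15 after leaving out the 2 tumors with the most extreme neighbor scores, so this relation rests on those tumors. Cpt1a gave 0.29 (adjusted p = 0.0648). Its neighbors had a mean score of -0.33 in X10 tumors (SD 0.35), 0.09 in vehicle tumors (SD 0.43), -0.02 in insulin tumors (SD 0.51), 0.05 in glargine tumors (SD 0.27) and 0.21 in IGF1 tumors (SD 0.47). Permutation tests of this score gave p = 0.137 for X10 against insulin and p = 0.0297 for X10 against vehicle, unadjusted, and X10 against glargine was not tested. The part of the chromosomal position in the level of any member was not tested.

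**Figure D5:**
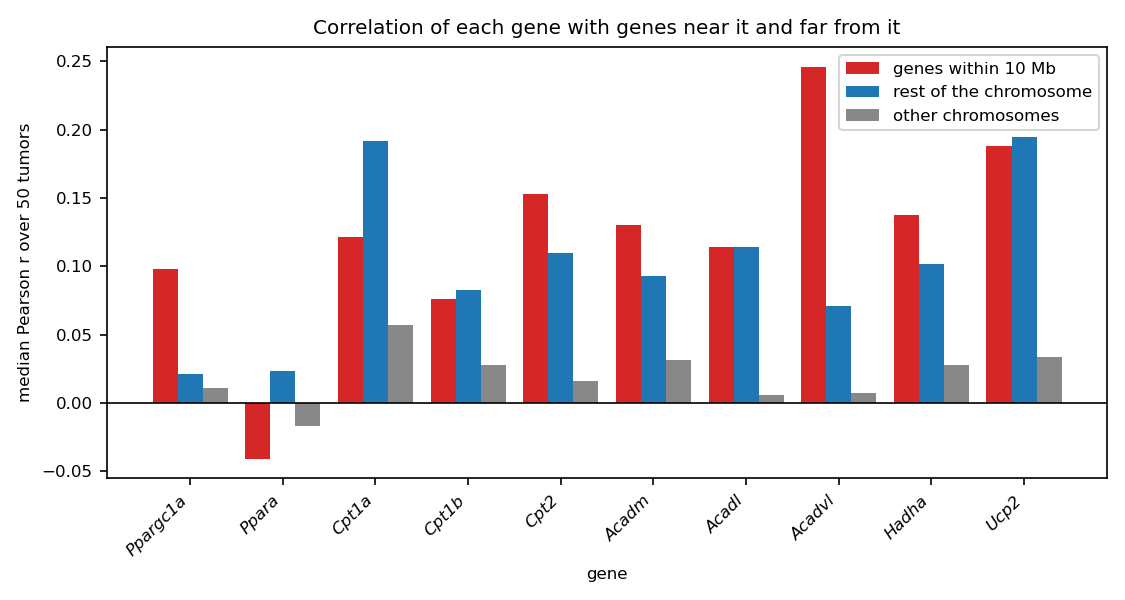
Median Pearson r over 50 tumors of each member with tested genes within 10 Mb of it (red), on the rest of its chromosome (blue) and on other chromosomes (grey). For Acadvl the 3 bars are at 0.25, 0.07 and 0.01, and Ppara is the member whose red bar is the lowest of its bars.

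The study asked whether long treatment with insulin analogs shifts the metabolism of tumors toward glycolysis, so members were related to 14 glycolytic and 16 tricarboxylic acid cycle enzymes. Of these 20 pairs 0 passed an adjusted p of 0.05 by permutation of Pearson r and 1 by Spearman rho, and by Pearson r 4 were past an unadjusted p of 0.05. Ppargc1a was at -0.40 with the glycolytic score (rho = -0.35, adjusted p = 0.0826) and Ucp2 at -0.29 (adjusted p = 0.191). Hadha was at 0.37 (rho = 0.44, with an adjusted p of 0.0370 for rho by permutation) and Acadvl at 0.35 (rho = 0.37) with the tricarboxylic acid cycle score, with adjusted p of 0.0826 and 0.0839 for r by permutation. With the marker scores removed, a setting chosen after seeing the data, Ppargc1a and glycolysis gave -0.54 (adjusted p = 0.000400). Acadm and the tricarboxylic acid cycle gave 0.41 there (adjusted p = 0.0349). In the planned settings the adjusted p by permutation was between 0.0672 and 0.147 for the former pair and between 0.260 and 0.647 for the latter. After leaving out the 2 tumors most extreme in the member gene, Ppargc1a gave -0.33 (adjusted p = 0.141), and Hadha 0.51 (adjusted p = 0.00440). Relations of these sizes thus depend on the setting.

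Beyond the members, 61 other tested genes of fatty acid oxidation in 6 lists were examined. For insulin, glargine and IGF1 against vehicle 0 of 61 passed an adjusted p of 0.05 by limma, with 8, 6 and 3 at an unadjusted p of 0.05, where 11.1%, 6.23% and 8.84% of all genes were. For X10 against vehicle 1 of 61 passed, where 0.0657% of all genes did, and 7 of 61 were at an unadjusted p of 0.05 (all genes, 11%). The gene called was Pprc1, which encodes a relative of PGC-1 alpha. It fell from a median of 157.8 RPKM in vehicle tumors (134.8 to 286.7) to 122.8 in X10 tumors (84.97 to 148.9), a log2 change of -0.51 (SE 0.11, adjusted p = 0.0473), with 8 of 10 X10 tumors below every vehicle tumor. It passed in 4 of 11 alternatives and in 18 of 50 fits that left out a tumor, so the call is marginal. Over all tested genes 11 were called in this contrast, and 1 with library size as a covariate. In mean log2 level 5 of 6 epithelial markers were lower in X10 than in vehicle tumors (median -0.51) and 7 of 8 leukocyte markers higher (median 0.24), none at an adjusted p of 0.05. The median of the 61 genes in X10 against vehicle was -0.03, against -0.03 over all tested genes.

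When X10 and IGF1 tumors were set against the 30 others, a grouping that the study made on these same tumors, 0 of 61 passed (all genes, 0.155%). Past an unadjusted p of 0.05 were 5 of 61, where 10.5% of all genes were. In mean log2 level 47 of 61 were lower, with a median of -0.05 beside -0.02 over all tested genes, of which 9444 of 16733 were lower (56.4%). With quantile normalization 38 of 61 were lower, beside 45.0% of all genes. Of the 17 other mitochondrial beta-oxidation enzymes 14 were lower (13 with quantile normalization), and of the 7 PPAR targets outside the pathway 7 were (4 with quantile normalization). Among the 8 tested members, with Ppargc1a favored by the filter, 8 were lower, with a median of -0.09, and 7 were with quantile normalization, which turned Cpt2. In that comparison 6 of 6 epithelial markers were lower too, with a median of -0.68 and 0 at an adjusted p of 0.05.

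Between X10 and glargine 2 of 61 passed, where 1.78% of all genes did, a share that stands for about 1 of 61. Crat, carnitine acetyltransferase, was at a median of 86.1 RPKM in X10 and 108 RPKM in glargine tumors, a log2 difference of -0.40 (SE 0.11, adjusted p = 0.0458 by limma). Acaa1b, a peroxisomal thiolase, was at 3.16 and 5.35 RPKM with a log2 difference of -0.62 (SE 0.14, adjusted p = 0.0158). Acaa1b is nearly identical to Acaa1a, so reads may be split between them and its value is uncertain. Acaa1b passed in 9 of 10 alternatives and in 50 of 50 fits that left out a tumor. Crat passed in 4 of 11 alternatives and in 28 of 50 such fits, with an adjusted p of up to 0.122, so its call is marginal. In the other 5 pairs of ligands 0 of 61 passed. At an unadjusted p of 0.05 by limma there were 5 of 61 for glargine against insulin (all genes, 3.96%) and 8 for X10 against insulin (11.3%). There were 3 for IGF1 against insulin (7.3%), 7 for IGF1 against glargine (6.98%) and 7 for IGF1 against X10 (11.7%).

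For any difference among the groups 0 of 61 passed. The smallest adjusted p of each list were 0.125 for Pprc1 and 0.213 for Lpin1, a coactivator of PPAR alpha, among the regulators, and 0.145 for Acaa1b and 0.446 for Acaa1a among the peroxisomal enzymes. In the carnitine and activation list they were 0.248 for Crat and 0.274 for the acyl-CoA synthetase Acsl3, which had a mean of 47.0 RPKM in X10 tumors (SD 15.2) and 31.0 in IGF1 tumors (SD 7.45). Angptl4, an inhibitor of lipoprotein lipase, gave 0.420 and the thioesterase Acot1 0.748. The fatty acid transporter Cd36 gave 0.577 and the binding protein Fabp5 0.582. Among the mitochondrial enzymes the short-chain dehydrogenase Acads gave 0.494 and the hydratase Echs1 0.491. Ucp1 and Ucp3, the other uncoupling proteins, had means of 0.260 and 0.487 RPKM, under the filter.

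Most of the spread of the members was between tumors of the same group. Treatment accounted for a median of 9.54% of the variance of the 8 tested members and of 9.29% over all tested genes. Acadl followed Cpt1a with 20.1%, and Ucp2 had 12.8%, Ppargc1a 11.3%, Hadha 7.77%, Acadvl 7.21%, Acadm 7.07% and Cpt2 6.46%. The median SD of the members on the log2 scale was 0.37, beside 0.42 over all tested genes.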

How the data were processed

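RNA of 50 mammary gland tumors was Poly-A selected and sequenced on the Ion Proton. The authors aligned reads to GRCm38 with TopHat2 2.0.10 and aligned the leftover reads with Bowtie2, counted reads per gene with HTSeq 0.6.1 and deposited RPKM values, that is reads over library size and gene length. Their DESeq2 1.2.10 analysis was not repeated. From the steps between RPKM values within a gene, gene lengths, whole reads and library sizes were recovered; at least 99.97% of low values were whole reads. 0 sample columns were left unused.

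Each gene was tested with limma 3.58.1 (R 4.3.3) on log2(RPKM + 0.5) with an intensity trend and all 5 groups in the fit, over genes whose mean RPKM reached 0.5, adjusted by Benjamini-Hochberg, after checks on simulated data. limma replaced a count model because the file holds RPKM. All tests were two-sided; permutation tests used 100000 resamples (Python 3.11.15, numpy 2.4.6). A score is the mean z-score of a gene list. Relations were tested by Pearson and Spearman correlation and adjusted within each family (45, 70 and 20 pairs). Nothing says that tumors were processed in separate batches; each tumor is from 1 mouse by its number.

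Named genes are the 10 members, genes of the other lists with an adjusted p under 0.05 and otherwise the 2 with the smallest p over any difference, and the 3 genes most like each member. The members, lists and tests were chosen with earlier results of these data known. Gene positions are from GENCODE M21 and promoters from RefSeq (GRCm38.p6), which held 9 of the 10 members. Alternatives were pseudocounts of 0.1 and 1, a higher filter (mean RPKM of 5) or none, quantile normalization, upper quartile scaling, no trend, marker scores or library size as covariates, voom on the recovered reads, only the groups compared, permutation tests and leaving out each tumor.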

Additional observations from a re-analysis of the deposited data

Results flagged for a closer look

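In 6 of the 50 groups of 10 tumors (10 members in 5 groups) the highest or lowest tumor stood apart from the next by a share of the group's range, on log2(RPKM + 0.5), past the 95% critical value of Dixon's test for 10 samples; chance gives about 1 in 20. Of these 4 were Ppargc1a. The highest vehicle tumor had 3.56 RPKM and the next 1.03 (gap 0.498 of the range), the highest insulin tumor had 2.72 and the next 0.660 (0.664), the highest glargine tumor had 3.25 and the next 0.993 (0.506), and the highest X10 tumor had 1.24 and the next 0.485 (0.525). The high Ppargc1a tumors thus stood apart in each group but IGF1. Acadm was lowest in 1 IGF1 tumor, with 35.7 RPKM against 66.2 in the next (0.555). Hadha was highest in 1 vehicle tumor, with 84.2 RPKM against 67.2 (0.497).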

How the results depend on the processing

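No paired analysis was possible because the groups compared share no replicate numbers. The count of called members stayed at 0 for the 4 ligands against vehicle, X10 and IGF1 against the rest and any difference in every alternative run and in the 50 fits that left out a tumor. For X10 against insulin it was 1 (Cpt1a) with only the groups compared, and for X10 against glargine it was between 0 and 1 on leaving out a tumor. Of the 45 pairs of members 6 passed, and between 5 (upper quartile scaling) and 9 (Spearman correlation) in the alternatives. Of the 70 marker relations 2 passed, but 5 after leaving out the 2 tumors most extreme in the member and 1 under upper quartile scaling; of the 20 enzyme relations 0 passed, but 1 without those 2 tumors, 1 by Spearman correlation and 2 with marker scores removed. The median share of variance of members was 10.1% with a pseudocount of 0.1 and 9.14% with 1.

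Differences near 0 changed sign, none of them called; single names are ligands against vehicle, and pooled is X10 and IGF1 against the rest. They were, with marker scores as covariates, insulin Ppargc1a (0.0603), insulin Acadvl (0.0235), X10 Ucp2 (-0.0722), pooled Cpt2 (0.0382). Others were, with quantile normalization, insulin Acadvl (0.025), X10 Cpt2 (0.0219), X10 Acadvl (0.0179), IGF1 Acadvl (-0.00855), pooled Cpt2 (0.0132). With library size as a covariate they were insulin Acadvl (0.0601), glargine Acadl (-0.0107), X10 Cpt2 (0.0107), X10 Acadvl (0.0612), pooled Cpt2 (0.00224). With upper quartile scaling they were X10 Cpt2 (0.0157), X10 Acadvl (0.00681), IGF1 Acadvl (-0.0026), pooled Cpt2 (0.00713). On leaving out a tumor, the sign changed in some fits, with the range over the 50 fits, for insulin Ppargc1a (-0.33 to 0.0872), Cpt2 (-0.0434 to 0.0939), Acadm (-0.11 to 0.0492), Acadvl (-0.0699 to 0.045), Hadha (-0.0129 to 0.0713). The same held for glargine Ppargc1a (-0.0597 to 0.35), Acadm (-0.11 to 0.055), Acadl (-0.0535 to 0.0734), and for X10 Cpt2 (-0.0984 to 0.0389), Acadvl (-0.15 to 0.00447), Ucp2 (-0.0521 to 0.10). It did so too for IGF1 Acadvl (-0.0543 to 0.0649) and pooled Cpt2 (-0.0662 to 0.0255), Acadm (-0.0661 to 0.0229). The cause of these changes was not tested. Depth limits Cpt1b, Ppara and Ppargc1a, which had as few as 1, 6 and 5 reads in a tumor.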
